A study of Mus musculus with 6 samples.

Results

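The genes that carry or restrain the signal of the pre-B and B cell receptor were followed in mouse bone marrow, 9 in all: Cd79a, Cd79b, Blnk, Btk, Syk, Blk, Lyn, Cd22 and Cd72. They were chosen by symbol, with earlier results of these data known. All 9 of 9 were found by Ensembl identifier among the 47729 genes of the deposited table. All passed the filter on low counts, which kept 15686 genes. Cluster KO mice, which carry a knockout of the SNORD113-114 cluster of small nucleolar RNA genes, gave 3 libraries, and wildtype mice gave 3. The series asks which genes differ without the cluster, with an interest in stem cell self-renewal and translation. All were bone marrow RNA read by poly(A) RNA-seq. No treatment is named. The sources used here do not give strain, sex or age, how the knockout was made, or whether cells were sorted.

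In a precursor B cell the heavy chain pairs with a surrogate light chain, and later with a true light chain, to form a receptor with almost no cytoplasmic tail of its own. The signal passes through the CD79A and CD79B chains, whose tails carry tyrosine activation motifs. Src family kinases such as LYN and BLK phosphorylate these motifs, SYK docks on them, and SYK then phosphorylates the adaptor BLNK, which gathers BTK and phospholipase C gamma. CD22 and CD72 act against the signal by recruiting the phosphatase SHP-1 to inhibitory motifs that LYN phosphorylates. CD79A, CD79B, BLK, CD22 and CD72 are used mostly by B lineage cells, whereas SYK, LYN and BTK also serve myeloid cells, mast cells and platelets.

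The libraries held between 21424579 and 23459168 gene counts in cluster KO and between 17663369 and 22370022 in wildtype. The deletion itself could not be checked, because its host transcript Rian had 9, 6 and 3 counts in cluster KO libraries, against 11, 5 and 38 in wildtype libraries. Stem and progenitor genes were plentiful, with Kit at 279 and 354 mean CPM and Ly6a at 258 and 200 mean CPM in cluster KO and wildtype libraries. Adult hemoglobin was scarce for marrow, with Hba-a1 at 63.7 mean CPM in cluster KO and 169 in wildtype libraries. Some libraries stood apart in single genes of plasma cells and neutrophil precursors. The antibody joining chain gene Jchain was at 1.42, 840 and 473 CPM in cluster KO libraries, against 307, 246 and 475 CPM in wildtype libraries. The neutrophil elastase gene Elane was at 710, 2.19 and 171 CPM in cluster KO libraries, against 251, 296 and 113 CPM in wildtype libraries. Results of the 9 genes that change when such a library is left out are given with and without it. The counts of the cell type marker lists, other than the B lineage list, were not recomputed in this way. In bulk RNA, more cells of a type and more RNA per cell cannot be told apart.

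In cluster KO marrow 5 of the 9 signalling genes were higher and 0 were lower. Both receptor chains, the adaptor Blnk, the kinase Blk and the inhibitory receptor Cd72 passed the test, while the kinases Syk, Lyn and Btk and the inhibitory receptor Cd22 did not. Of all 15686 genes tested, 15.9% were called higher and 12.1% lower (edgeR quasi-likelihood test, Benjamini-Hochberg adjusted p under 0.05 over all of them). The median log2 fold change was 1.14 over the 9 genes and 0.00 over all genes tested. The genes were chosen with earlier results of these data known, so these comparisons describe them and are no test of the set. In 7 of the 9 genes every cluster KO library lay above every wildtype library, against 22.9% of all genes tested, and in 0 of the 9 every one lay below, against 23.1%. All 5 called genes were more than 2-fold higher, which 6.27% of all genes tested were at that threshold. The count of genes called higher was 4 without cluster KO 2, without cluster KO 3 or without wildtype 3, and 6 without cluster KO 1.

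**Figure D1:**
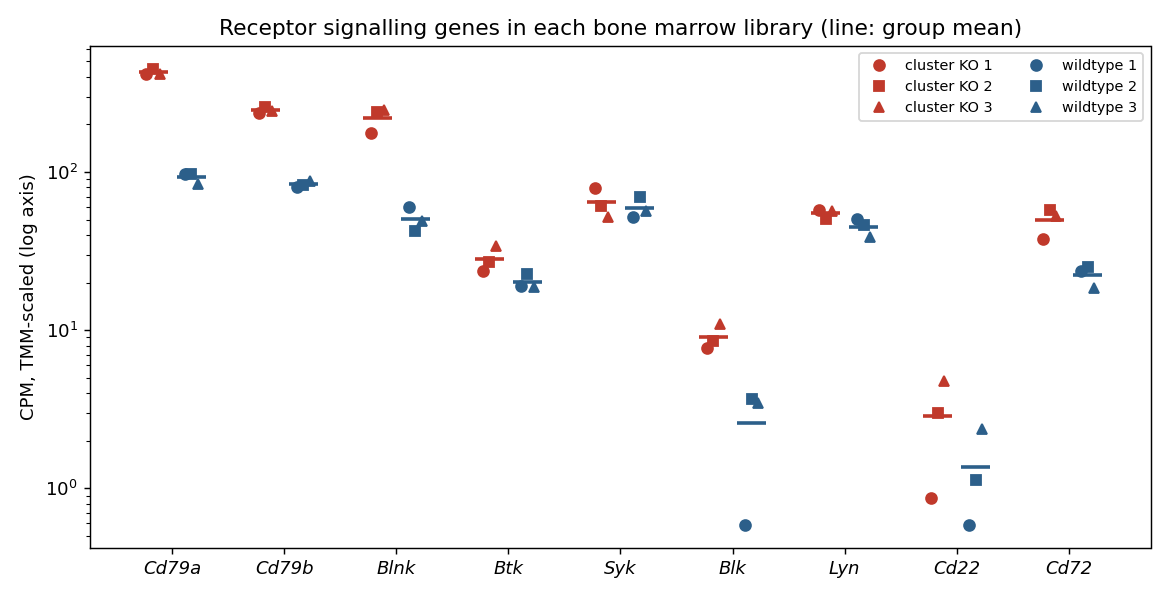
Normalised read counts (CPM on TMM-scaled library sizes, log axis) of the 9 genes in 3 cluster KO libraries (red, left of each pair) and 3 wildtype libraries (blue), with a line at each group mean. The groups lie far apart for Cd79a, at 416 to 450 CPM in cluster KO and 84.4 to 97.8 CPM in wildtype, and overlap for Syk and Cd22.

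Cd79a (chromosome 7, 24897381 to 24902197, GRCm38) encodes the alpha signalling chain. It was at 416, 450 and 417 CPM in cluster KO libraries, against 97.3, 97.8 and 84.4 CPM in wildtype libraries. Its log2 fold change was 2.20 (SE 0.11, edgeR adjusted p = 1.0e-05), a 4.59-fold difference, and it had the third smallest p of all genes tested. Cd79b (chromosome 11, 106311341 to 106314762) encodes the beta chain with which the alpha chain forms a dimer. It was at 237, 259 and 245 CPM in cluster KO libraries, against 80.7, 82.8 and 87.5 CPM in wildtype libraries. Its log2 fold change was 1.56 (SE 0.11, edgeR adjusted p = 9.5e-05), a 2.95-fold difference. The spread between libraries was small for both chains, with a coefficient of variation of 4.49% in cluster KO and 8.16% in wildtype for Cd79a, and of 4.52% and 4.12% for Cd79b.

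Blnk (chromosome 19, 40928927 to 40994535) encodes the adaptor that links SYK to phospholipase C gamma and BTK. Blnk was at 177, 239 and 247 CPM in cluster KO libraries, against 59.9, 42.5 and 49.2 CPM in wildtype libraries. The lowest cluster KO library was still well above the highest wildtype library. The log2 fold change of Blnk was 2.13 (SE 0.17, edgeR adjusted p = 0.000211), a 4.37-fold difference, close to that of Cd79a.

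The 4 kinase genes moved less evenly, and 1 of them passed the test. Blk, a Src family kinase of B cells (chromosome 14, 63372836 to 63417037), was at 7.68, 8.58 and 10.9 CPM in cluster KO libraries, against 0.588, 3.68 and 3.48 CPM in wildtype libraries. Wildtype 1, with 13 counts, was far below the other two. The log2 fold change of Blk was 1.82 (SE 0.52, edgeR adjusted p = 0.0269). It was 1.34 without wildtype 1 (edgeR adjusted p = 0.0197), and the call was lost without cluster KO 2 (0.0695), cluster KO 3 (0.0734) or wildtype 3 (0.0576), over a range of 0.0015 to 0.0734 across the 12 alternatives.

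Lyn, the Src family kinase that both starts and restrains the signal (chromosome 4, 3678115 to 3813122), was at 57.8, 50.5 and 56.3 CPM in cluster KO libraries, against 50.3, 46.1 and 38.9 CPM in wildtype libraries. The groups did not overlap, but the lowest cluster KO library and the highest wildtype library were almost equal. The log2 fold change of Lyn was 0.28 with a 95% interval of -0.04 to 0.60 (edgeR adjusted p = 0.173). Syk, the kinase that docks on the phosphorylated chains (chromosome 13, 52583173 to 52648792), was at 78.9, 61.3 and 52.3 CPM in cluster KO libraries, against 51.7, 69.5 and 56.8 CPM in wildtype libraries. Its groups overlapped throughout, with a log2 fold change of 0.11 and a 95% interval of -0.29 to 0.51 (edgeR adjusted p = 0.668). The value was -0.07 without cluster KO 1. These intervals leave out a change of the size seen in Cd79a, Cd79b or Blnk.

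Btk (chromosome X, 134542336 to 134583570), the Tec family kinase whose loss blocks B cell development in human and weakens it in mouse, was at 23.8, 27.1 and 34.0 CPM in cluster KO libraries, against 19.0, 22.8 and 18.7 CPM in wildtype libraries. All cluster KO libraries were higher, cluster KO 1 by little. The log2 fold change of Btk was 0.49 with a 95% interval of 0.08 to 0.90 (edgeR adjusted p = 0.0733). It passed the threshold without cluster KO 1 (edgeR adjusted p = 0.0312) and in DESeq2 (0.0368), and its adjusted p reached 0.223 without cluster KO 3, the highest of the alternatives.

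The inhibitory receptor Cd72 (chromosome 4, 43446462 to 43454628) was at 37.8, 57.5 and 52.9 CPM in cluster KO libraries, against 23.6, 25.1 and 18.5 CPM in wildtype libraries. The groups were apart, and cluster KO 1 was the lowest of its group. The log2 fold change of Cd72 was 1.14 (SE 0.20, edgeR adjusted p = 0.00388), a 2.21-fold difference. The kinase gene Tesk1 lies on the opposite strand and shares 41.6% of the exonic bases of Cd72, and these libraries do not keep strand. Tesk1 was far lower than Cd72, at 1.96, 2.36 and 3.76 CPM in cluster KO libraries, against 0.407, 0.510 and 1.38 CPM in wildtype libraries. Tesk1 was itself called higher (log2 fold change 1.81, edgeR adjusted p = 0.0353). The counting mode is not stated, so reads in the shared bases may be missing from the counts of both genes. The part of this overlap in the values of Cd72 was not tested. The other inhibitory receptor, the sialic acid binding lectin Cd22 (chromosome 7, 30865402 to 30880342), was low and varied widely. Its coefficient of variation was 67.7% in cluster KO and 66.7% in wildtype. Its raw counts were 19, 71 and 102 in cluster KO libraries, against 13, 20 and 46 in wildtype libraries, so that the groups overlapped. The log2 fold change of Cd22 was 1.08 with a 95% interval of -0.38 to 2.53 (edgeR adjusted p = 0.245). It moved to 0.51 without cluster KO 3, to 0.71 without wildtype 1 and to 1.74 without wildtype 3, so that a change was neither shown nor bounded closely in these libraries.

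**Figure D2:**
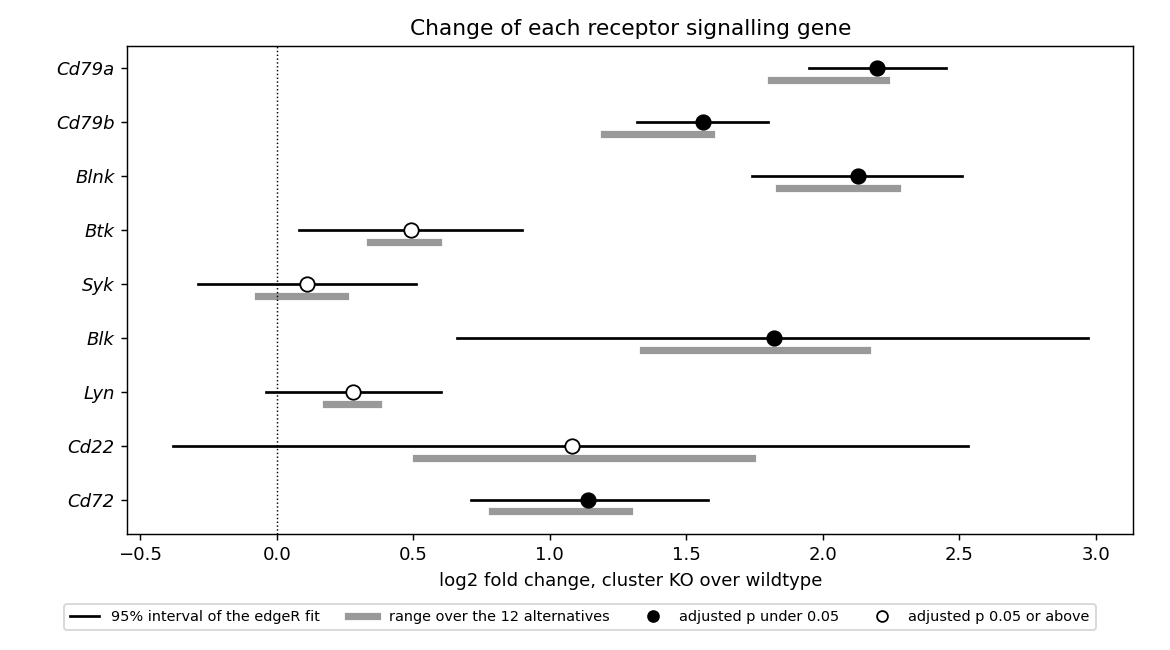
Log2 fold change, cluster KO over wildtype, of the 9 genes (points, filled where the edgeR adjusted p was under 0.05), with the 95% interval of the fit (thin line) and the range over the 12 alternatives (grey bar). Cd79a and Blnk sit near 2.20 and 2.13, Cd79b at 1.56, and the intervals of Syk, Lyn and Cd22 include 0.

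Because several of these genes moved together, their annotated promoter windows were set side by side. RefSeq windows on GRCm38.p6, from 250 bases before to 50 bases after the RefSeq start, were matched for 6 of the 9 genes. The gene positions printed above come from another annotation (GENCODE), whose starts differ. The windows of Blnk, Syk, Btk and Cd22 lie wholly inside those positions, and the Cd79a window spans the printed start. Those that bear on the calls are shown 5′ to 3′ on the strand of the gene. Cd79a, Blnk and Cd72 are the called genes with a window, and Syk is the gene with the smallest change.
Cd79a promoter, chr7:24897247-24897546, plus strand: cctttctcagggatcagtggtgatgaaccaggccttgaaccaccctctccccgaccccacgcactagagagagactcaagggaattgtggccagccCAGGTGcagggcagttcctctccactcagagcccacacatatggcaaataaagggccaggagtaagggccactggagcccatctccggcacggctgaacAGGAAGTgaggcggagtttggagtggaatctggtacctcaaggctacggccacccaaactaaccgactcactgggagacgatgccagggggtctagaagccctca
Blnk promoter, chr19:40994172-40994471, minus strand: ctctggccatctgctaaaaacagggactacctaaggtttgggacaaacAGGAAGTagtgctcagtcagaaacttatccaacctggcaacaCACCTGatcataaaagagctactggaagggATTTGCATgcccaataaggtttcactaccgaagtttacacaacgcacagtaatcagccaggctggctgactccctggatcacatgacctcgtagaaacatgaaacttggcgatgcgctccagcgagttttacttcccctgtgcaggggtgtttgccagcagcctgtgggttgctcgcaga
Cd72 promoter, chr4:43454577-43454876, minus strand: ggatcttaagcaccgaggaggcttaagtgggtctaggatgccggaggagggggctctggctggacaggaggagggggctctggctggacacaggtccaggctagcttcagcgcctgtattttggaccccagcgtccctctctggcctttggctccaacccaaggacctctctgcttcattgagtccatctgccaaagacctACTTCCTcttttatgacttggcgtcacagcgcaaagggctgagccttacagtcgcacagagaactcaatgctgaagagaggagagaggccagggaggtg
Syk promoter, chr13:52583187-52583486, plus strand: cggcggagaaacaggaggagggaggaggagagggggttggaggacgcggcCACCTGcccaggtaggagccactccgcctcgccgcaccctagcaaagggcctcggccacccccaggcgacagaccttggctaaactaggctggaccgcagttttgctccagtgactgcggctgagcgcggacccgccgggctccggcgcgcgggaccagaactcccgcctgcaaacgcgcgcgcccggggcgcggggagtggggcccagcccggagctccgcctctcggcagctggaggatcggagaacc
Capitals mark matches, on either strand, to an ETS family motif (AGGAAGT), an E-box (CAGGTG), the octamer (ATTTGCAT) or an EBF core (CCCNNGGG). The motifs were chosen after the sequences had been read, and their matches did not overlap in these windows. The ETS motif was found in the windows of Cd79a, 55 bases before the RefSeq start, of Blnk, 202 bases before, and of Cd72, 49 bases before. In Cd79a and Blnk this match lies inside the gene positions printed above. The ETS motif was not found in the windows of Syk, Btk and Cd22, and it is in 9.35% of all 32851 promoter windows. The E-box stood in the windows of Cd79a, Blnk, Syk and Cd22 and in 20.2% of all windows. The octamer was found in the window of Blnk, 130 bases before the RefSeq start, and in 1.74% of all windows. The EBF core was found in the window of Cd22 and in 13.7% of all windows. A match is a run of letters and shows no binding.

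Levels of different genes were compared per transcript length, as TPM from the median length of a gene's protein-coding transcripts. The order of the 9 genes was the same in both genotypes, running Cd79a, Cd79b, Blnk, Cd72, Lyn, Syk, Btk, Blk and Cd22 from high to low. The place of Cd72 depended on the length used, since with the longest transcript it was at 13.3 TPM in wildtype, below Lyn (19.9) and Syk (16.9). In cluster KO libraries the level of Cd79a was 341 ± 18.6 TPM (SD, n = 3) and in wildtype libraries 69.5 ± 6.4 TPM. For Cd79b the level was 218 ± 12.1 TPM in cluster KO and 69.2 ± 2.22 TPM in wildtype libraries. The 2 chains thus differed beyond their spread in cluster KO libraries and overlapped in wildtype libraries. Blnk was at 135 ± 24.4 TPM in cluster KO and 28.9 ± 5.04 TPM in wildtype, and Cd72 at 40.4 ± 8.79 and 17.1 ± 2.82 TPM. The kinases Lyn, Syk and Btk lay close together, at 18.6, 14.5 and 14.1 mean TPM in cluster KO and 14.3, 12.6 and 9.40 mean TPM in wildtype. Syk overlapped with Btk in cluster KO libraries and with Lyn in both genotypes, and Lyn overlapped with Cd72 in wildtype libraries. Blk, at 4.51 and 1.21 mean TPM, and Cd22, at 0.971 and 0.428 mean TPM, were the lowest in cluster KO and wildtype, and these overlapped with each other in wildtype libraries.

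**Figure D3:**
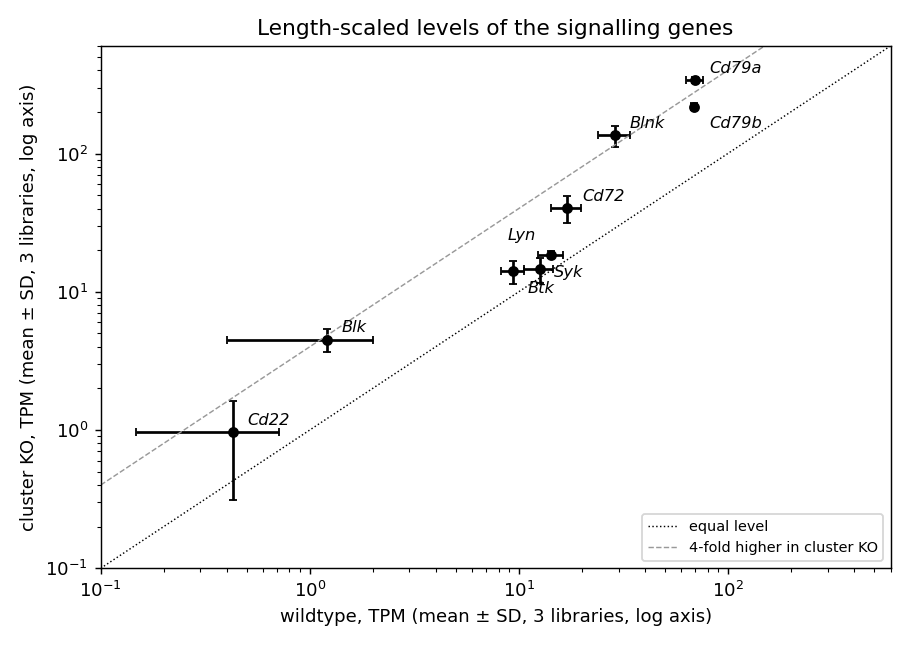
Length-scaled level (TPM, mean ± SD of 3 libraries, log axes) of each gene in cluster KO (vertical) against wildtype (horizontal), with lines for an equal level and for a 4-fold higher level in cluster KO. Cd79a and Blnk lie on or above the 4-fold line, Cd79b and Cd72 between the lines, and Lyn, Syk and Btk nearest to the line of equal level.

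The ratio of 2 genes within a library does not depend on how libraries are scaled, and it compares how far the genes moved. Cd79a had the largest log2 fold change of the 9 genes, so lower ratios to it in cluster KO largely restate the fold changes above. With 3 against 3 libraries no exact permutation p under 0.1 is possible, so no ratio could pass 0.05. Over the 9 genes, 11 such ratios were computed. The log2 ratio of Cd79b to Cd79a counts was -0.81, -0.80 and -0.77 in cluster KO libraries, against -0.27, -0.24 and 0.05 in wildtype libraries. The groups did not overlap, and the difference of -0.64 is 0.641-fold (two-sided exact permutation p = 0.1, which is the smallest that 3 against 3 libraries allow, and 0.183 after adjustment over the 11 ratios). Relative to Cd79a, the groups were also apart for Syk, Lyn, Btk and Cd72, whose ratios were 0.234-fold, 0.266-fold, 0.303-fold and 0.477-fold in cluster KO relative to wildtype (exact permutation p = 0.1 each, adjusted p = 0.183).

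For Blnk no shift relative to Cd79a was detected. Its log2 ratio to Cd79a was -1.23, -0.91 and -0.76 in cluster KO libraries, against -0.70, -1.20 and -0.78 in wildtype libraries, which overlapped (difference -0.07, exact permutation p = 0.6, and -0.23 to 0.06 without single libraries). With a smallest possible p of 0.1, this does not show that both moved by the same amount. Between the Src family kinases, the log2 ratio of Lyn to Blk was 2.91, 2.56 and 2.37 in cluster KO libraries, against 6.42, 3.65 and 3.48 in wildtype libraries. Lyn counts exceeded Blk counts in every library, and by less in cluster KO (difference -1.90, exact permutation p = 0.1, adjusted p = 0.183). Without wildtype 1, which held 13 Blk counts, the difference was -0.95. The ratios of Btk to Syk and of Cd22 to Cd72 overlapped between the genotypes, with differences of 0.38 and -0.14 (exact permutation p = 0.4 and p = 0.9). Without single libraries the difference ran from 0.10 (without cluster KO 3) to 0.65 (without cluster KO 1) for Btk to Syk, and from -0.68 (without wildtype 1) to 0.50 (without wildtype 3) for Cd22 to Cd72.

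**Figure D4:**
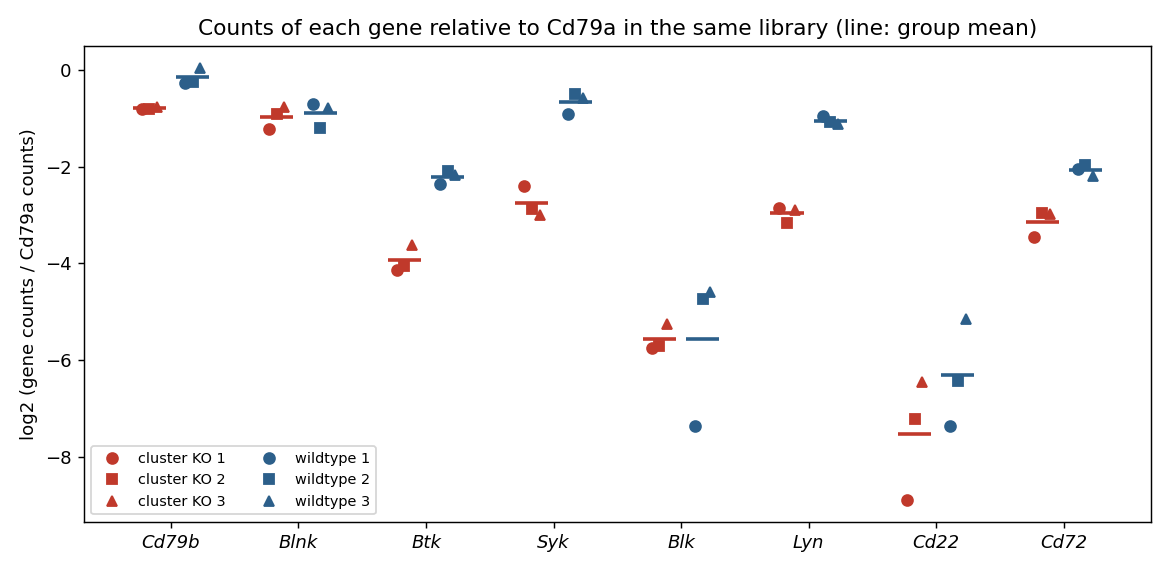
Log2 ratio of each gene's counts to the Cd79a counts of the same library, in 3 cluster KO (red) and 3 wildtype (blue) libraries, with a line at each group mean. The groups are apart for Cd79b, Btk, Syk, Lyn and Cd72, and overlap for Blnk, Blk and Cd22.

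The same was done against the summed counts of 9 other B lineage genes, among them the transcription factor genes Pax5 and Ebf1 and the recombinase genes Rag1 and Rag2. Vpreb1, Vpreb3 and Igll1, grouped here as the 3 surrogate light chain genes of the sum, gave 81.1 to 83.8% of it in cluster KO libraries and 80.1 to 81.9% in wildtype libraries. Against this sum, Cd79a was 1.77-fold higher in cluster KO, with log2 ratios of -1.87, -1.65 and -1.63 in cluster KO libraries and -2.37, -2.44 and -2.80 in wildtype libraries. Cd79b differed by 0.18 and Blnk by 0.75 on the log2 scale, both with overlap between the groups (exact permutation p = 0.2 each). Syk, Lyn and Btk lay below the B lineage sum in cluster KO, at 0.412-fold, 0.469-fold and 0.535-fold, without overlap. For Cd79a, Syk, Lyn and Btk the exact permutation p was 0.1, the smallest possible, and 0.225 after adjustment over the 9 genes. With the surrogate light chain genes left out of the sum, Cd79b and Blnk did not overlap either, with differences of 0.34 and 0.90 (exact permutation p = 0.1, adjusted p = 0.15). The log2 ratio of Cd79b was then -0.06, 0.15 and 0.00 in cluster KO libraries, against -0.28, -0.22 and -0.42 in wildtype libraries. Cd72, Cd22 and Blk overlapped between the genotypes, with differences of -0.25, -0.39 and 0.81. These depended on single libraries: Blk was at -0.01 without wildtype 1 and 1.27 without wildtype 2, Cd22 at -0.97 without cluster KO 3 and 0.37 without cluster KO 1, and Cd72 at -0.44 without wildtype 3 and -0.01 without cluster KO 1.

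Among 9053 other genes with a mean of at least 10 CPM, the profile over the 6 libraries nearest to that of Cd79a was that of the long noncoding RNA gene 2610035D17Rik, with a root mean square difference of 0.121 on the centred log2 CPM scale. Slamf6, a SLAM family receptor of lymphocytes, followed at 0.139, and Lrg1 at 0.239. Slamf6 was at 60.1, 80.9 and 75.3 CPM in cluster KO libraries, against 15.0, 17.9 and 15.5 CPM in wildtype libraries. The profile of Syk was nearest to that of Cyba (0.049), a subunit of the phagocyte NADPH oxidase, and that of Lyn was nearest to that of Ugp2 (0.04), an enzyme of UDP-glucose synthesis. Cyba was at 405, 334 and 287 CPM in cluster KO libraries, against 277, 353 and 318 CPM in wildtype libraries, the same order of libraries as Syk in each genotype. These are likenesses over 6 libraries only.

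The parts of the receptor that bind antigen or stand in for the light chain were mostly higher as well. Of 7 such genes 5 rose and 0 fell, against 15.9% and 12.1% of all genes tested, with a median log2 fold change of 1.38. Ighm, the mu heavy chain, was at 367, 438 and 481 CPM in cluster KO libraries, against 149, 142 and 179 CPM in wildtype libraries (log2 fold change 1.45, SE 0.14, edgeR adjusted p = 0.000456). The surrogate light chain genes Igll1, Vpreb1 and Vpreb2 rose by 1.58, 1.49 and 1.38 on the log2 scale, although Vpreb1 and Vpreb2 are near copies and reads may be split between them. Igkc, the kappa light chain, was at 36.3, 2108 and 53.4 CPM in cluster KO libraries, against 1299, 1428 and 1046 CPM in wildtype libraries. Among the cluster KO libraries cluster KO 2 stood far above the others, and without it 1 of the 7 genes was called lower. Igkc was chosen after its values were seen.

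Of 8 coreceptor and tetraspanin genes 4 rose and 0 fell (15.9% and 12.1% of all genes tested), with a median of 0.68. The tetraspanin gene Cd81 was at 497, 625 and 746 CPM in cluster KO libraries, against 344, 329 and 279 CPM in wildtype libraries (log2 fold change 0.97, SE 0.15, edgeR adjusted p = 0.00297). Every cluster KO library was above every wildtype library. Another tetraspanin gene, Cd53, rose by 1.66 on the log2 scale. Cd37 rose by 0.61, a call that was lost without cluster KO 2 (edgeR adjusted p = 0.0694), wildtype 1 (0.0565) or wildtype 2 (0.0542) and once length and GC trends were removed (0.226), over a range from 0.000781 in DESeq2. Ms4a1 and Cr2, which belong to the mature B cell surface, did not pass the test. Neither was among the 4 genes of smallest p in this list. Ms4a1, which encodes CD20, was at 3.02, 7.11 and 9.57 CPM in cluster KO libraries, against 4.84, 3.34 and 7.58 CPM in wildtype libraries. Its log2 fold change was 0.32, with a 95% interval of -0.64 to 1.28. Cr2 was at 1.39 and 1.57 mean CPM in cluster KO and wildtype. The log2 fold change of Cr2 was -0.18, with a 95% interval of -1.47 to 1.1. Neither interval leaves out a 2-fold rise.

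Downstream of the 9 genes the picture was mixed. Of 42 genes listed as activating adaptors and effectors 12 rose and 3 fell, with a median of 0.22. Of all genes tested 15.9% rose and 12.1% fell. Pik3ap1, an adaptor that couples the receptor to PI3 kinase, was at 3.84, 6.78 and 10.7 CPM in cluster KO libraries, against 1.09, 0.906 and 1.33 CPM in wildtype libraries (log2 fold change 2.67, SE 0.42, edgeR adjusted p = 0.00316). Orai1, the pore of the store-operated calcium channel, was at 56.8, 63.4 and 64.3 CPM in cluster KO libraries, against 23.8, 26.1 and 18.6 CPM in wildtype libraries (log2 fold change 1.43, SE 0.16, edgeR adjusted p = 0.00119). The GTPase gene Rac2 rose by 1.33 and Tespa1 by 1.12 on the log2 scale. Sos1 (-0.94), Map4k1 (-0.64) and Grb2 (-0.39) fell. The list is broad, and the kinase encoded by Map4k1 can also restrain the signal, so its fall is not read as weaker activation. Plcg2, the phospholipase that BTK and BLNK activate, was at 70.5 and 63.9 mean CPM in cluster KO and wildtype (log2 fold change 0.14, edgeR adjusted p = 0.451), and was chosen, like the 3 genes that fell, after the values were seen. The count that rose was 7 without wildtype 2 or without wildtype 3. The count that fell was 1 without cluster KO 2 or without wildtype 3, and 6 without cluster KO 1.

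Of the inhibitory receptors, phosphatases and other brakes, 28 of 31 listed genes were tested, of which 10 rose and 4 fell, with a median of 0.42. The share that fell is near the 12.1% of all genes tested that were lower, while 15.9% of all genes were higher. Ptpn6, which encodes the phosphatase SHP-1 that CD22 and CD72 recruit, was at 156, 241 and 296 CPM in cluster KO libraries, against 110, 108 and 105 CPM in wildtype libraries (log2 fold change 1.10, SE 0.20, edgeR adjusted p = 0.00465). The wildtype libraries were almost equal and the cluster KO libraries spread widely above them. Dok2 (1.44), the phosphatase gene Ptpn22 (1.19) and the inhibitory receptor gene Cd300a (1.15) rose on the log2 scale, all of which myeloid or T cells also use. Ptpn11 (-1.02), the ubiquitin ligase gene Cbl (-0.60), Ubash3b (-0.64) and Csk (-0.41), the kinase that keeps Src family kinases inactive, fell. These were named after their values were seen. For Cbl the groups overlapped, with cluster KO 1 and wildtype 1 both at 53.3 CPM, and its edgeR adjusted p was 0.0431. The count that rose was 6 without cluster KO 2 or without wildtype 3. The count that fell was 1 without cluster KO 2, wildtype 2 or wildtype 3, and 2 without cluster KO 3 or wildtype 1.

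Among the paralogs of the kinases, 11 of 12 were tested, of which 3 rose and 0 fell, with a median of 0.54, where 15.9% of all genes tested were higher and 12.1% lower. Tec, the paralog of Btk found in several blood lineages, was at 22.2, 34.8 and 36.7 CPM in cluster KO libraries, against 13.4, 13.8 and 14.8 CPM in wildtype libraries (log2 fold change 1.16, SE 0.21, edgeR adjusted p = 0.00486). The Src family gene Lck, best known from T cells, rose by 0.90 on the log2 scale. Fgr, a myeloid Src family gene, rose by 1.26 (edgeR adjusted p = 0.0434), but its libraries overlapped and the call was lost without any single library other than cluster KO 3, with adjusted p from 0.0767 to 0.138 in those 5 cases and from 0.00836 to 0.138 over all alternatives. Zap70, the T cell paralog of Syk, was at 1.60, 2.57 and 2.14 CPM in cluster KO libraries, against 0.950, 0.793 and 0.154 CPM in wildtype libraries (edgeR adjusted p = 0.0606). The other tested paralogs did not pass, among them Bmx, Fyn, Txk, Src and Yes1, with log2 fold changes of 0.54 for Bmx, 0.35 for Fyn, 0.31 for Txk, 0.04 for Src and -0.51 for Yes1.

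**Figure D5:**
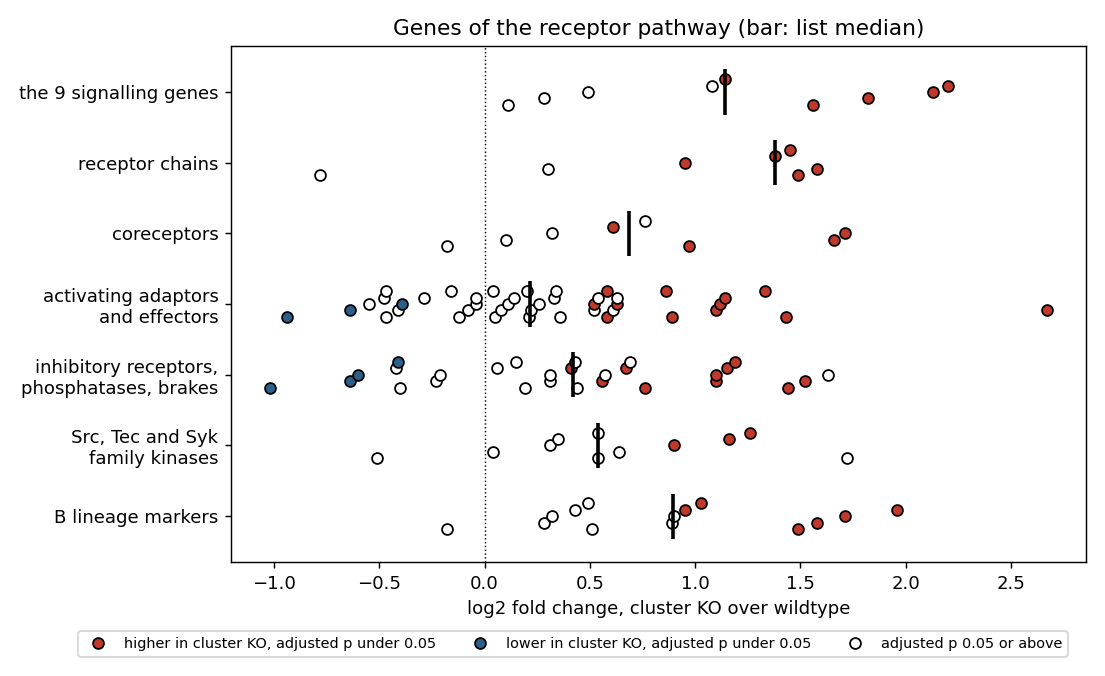
Log2 fold change, cluster KO over wildtype, of every tested gene in the 9 signalling genes, the pathway lists and the B lineage list, filled red where called higher, blue where called lower and open otherwise, with a bar at the list median. Among the lists drawn, the medians run from 0.22 for activating adaptors and effectors to 1.38 for the receptor chains.

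Markers of the cell types that could hold these transcripts are given by their calls, to be read against the 15.9% of all genes tested that were higher and the 12.1% that were lower. The lists are short, and a count such as 2 of 12 is near that background. Of 14 B lineage markers 6 rose and 0 fell, and their summed level was 1537, 1438 and 1315 CPM in cluster KO libraries, against 520, 550 and 603 CPM in wildtype libraries. Of 12 neutrophil markers 4 rose and 0 fell, and their sum was 20297, 11798 and 10667 CPM, against 6354, 9381 and 12099 CPM in wildtype libraries, with overlap. Of 8 megakaryocyte markers 1 rose and 3 fell, and their sum was 295, 295 and 299.8 CPM, against 472, 538 and 434 CPM in wildtype libraries. Of 12 monocyte and macrophage markers 2 rose and 0 fell, with sums of 169 to 269 CPM and 146 to 163 CPM in cluster KO and wildtype. Of 7 tested mast cell and basophil markers 2 rose and 2 fell, with sums of 498 to 569.8 CPM and 523 to 562 CPM. The T and NK list had 3 of 12 tested genes higher and the dendritic cell list 3 of 11, with 0 lower in both. The plasma cell list had 3 of 7 tested genes higher, among them Mzb1 (1.63) and Xbp1 (1.01). In the stem and progenitor list 6 of 12 rose and 2 fell, in the erythroid list 0 of 10 rose and 3 fell, and in the stroma and endothelium list 3 of 8 tested genes rose. No list had a member at 0 counts in all 6 libraries. The part of these cell types in the values of Syk, Lyn, Btk and the other genes was not tested.

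Measures of the libraries also moved with genotype. Alignments marked as not unique took 14.7, 13.9 and 13.4% of all counted alignments in cluster KO libraries, against 16.1, 16.3 and 16.8% in wildtype. Genes annotated as rRNA, mitochondrial ones included, took 0.614, 0.383 and 0.251% of gene counts in cluster KO, against 0.998, 1.08 and 1.44% in wildtype. Their part in the results was not tested. With trends of transcript length and GC content removed, Cd79a was at 1.81, Cd79b at 1.20, Blnk at 1.84 and Cd72 at 0.79 on the log2 scale, and the same 5 genes passed the test.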

How the data were processed

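RNA-seq of mouse bone marrow gave 6 libraries, 3 cluster KO and 3 wildtype, grouped by their titles. The design states 3 mice per genotype, but no label ties a library to 1 animal. The p-values then cover only library-to-library spread, which may be technical. Per the labels' protocols, libraries were non-stranded, from whole bone marrow cell extract, by Clontech poly(A) and Nextera kits. These words do not say whether cells were sorted before extraction. The submitters' processing notes name bcl2fastq, TopHat2, HTSeq and mm10. Their versions, the annotation and the counting mode are not stated there. The authors deposited raw read counts by Ensembl gene. Library sizes and tests exclude the 5 HTSeq summary rows. Of all counted alignments, 13.4 to 16.8% were not unique, 7.29 to 11.1% lay outside genes and 2.71 to 2.95% were ambiguous.

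GENCODE M21 (GRCm38, the assembly called mm10) gave symbols, positions and lengths, with 47310 of 47729 genes matched. The fit across all genes used edgeR 4.0.16 in R 4.3.3, with TMM scaling, filterByExpr (minimum count 10), robust quasi-likelihood estimation, genotype alone in the design, and Benjamini-Hochberg adjustment at 0.05. Normalised read counts are CPM on TMM-scaled library sizes. TPM was computed from the counts and the median protein-coding transcript length. Standard errors are the fitted coefficient over the square root of F, and 95% intervals use the t distribution with the fit's degrees of freedom. Ratios were tested by exact permutation of libraries. A count of 0 allows up to 3 counts, 0.128 to 0.17 CPM, for counting error only. Replicates differed beyond sampling noise, at chi-square values of 11.2 to 73 per degree of freedom.

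Members and lists were chosen with earlier results of these data known. The named genes are all 9 members, the 4 smallest p of each pathway list, the tested kinase paralogs, and the 3 nearest profiles of Cd79a, Syk and Lyn, of which the nearest is given for Syk and Lyn. Some genes that the rule names are not reported here. Genes outside this rule are said to be so, or illustrate a library check, a role, or a marker list. The fit was tested on simulated data, where it called 39 of 98 changes of 2-fold, 95 of 97 changes of 4-fold and 3 unchanged genes. A gene that did not pass can therefore be a missed 2-fold change, unless its interval leaves that out. The alternatives were DESeq2 1.42.0, its size factors or upper quartile scaling in edgeR, no low count filter, length and GC trends removed (mgcv 1.9.3), a replicate block, each library left out, a B lineage sum without surrogate light chain genes, and the longest transcript length.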

Additional observations from a re-analysis of the deposited data

How the results depend on the processing

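The replicate numbers gave no sign of pairing: the correlation of same-numbered deviations was -0.167, 0.008 and -0.139 over 15686 genes. For differently numbered libraries it ran from -0.028 to 0.174. Deviations within a group are not independent of each other, and a shared batch was not tested. With the number as a replicate block, the calls over all genes fell to 1331 higher and 865 lower, against 2487 and 1895 without it, 5 of the 9 signalling genes were still higher, and of the inhibitory receptors and brakes 6 rose and 1 fell, while Cd37 and Fgr lost their calls (edgeR adjusted p = 0.0614 and 0.114). Upper quartile scaling shifted the median of all genes to -0.103 and gave 46.6% of calls as higher, length and GC correction gave 46.7%, and the fit as reported gave 56.8%. Syk ran from -0.07 (without cluster KO 1) to 0.24 (without cluster KO 3 or wildtype 2) when single libraries were left out. Leaving out single libraries gave 1258 to 3151 higher and 742 to 2579 lower calls over all genes, 7 to 12 higher and 1 to 6 lower activating adaptors and effectors, 6 to 10 higher and 1 to 4 lower brakes, and 0 to 1 lower receptor chains. The log2 ratio of Cd79b to the B lineage sum was 0.34 without the surrogate light chain genes. Of the kinase paralogs, Src was at -0.03 with upper quartile scaling and -0.14 with the replicate block, and ran from -0.72 to 0.66 without single libraries, Yes1 from -0.83 to 0.03 and Bmx from -0.01 to 1.63. Of 129 recomputed ratios, 128 moved by less than the spread between libraries. Most of these left out a single library, which cannot move a group mean by more than that spread. The count therefore does not show that the ratios are stable. Low counts and spread between libraries limit Cd22 and Blk, whose lowest libraries held 13 counts each.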
